A study of Arabidopsis thaliana with 42 samples.

Results

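The genes described here are 10 loci of flavonoid and anthocyanin synthesis in Arabidopsis thaliana. They were chosen by locus identifier, with earlier results of these data known. They are CHS (AT5G13930), CHI (AT3G55120), F3H (AT3G51240), F3'H (AT5G07990), FLS1 (AT5G08640), DFR (AT5G42800), LDOX (AT4G22880), PAP1 (AT1G56650), PAP2 (AT1G66390) and MYB12 (AT2G47460). All 10 were found among the 37336 genes of each count table. RNA was sequenced from 42 libraries of Col-0 plants that were wild type (WT) or carried mutations in MTN1 (AT4G38800) and MTN2 (AT4G34840), which encode methylthioadenosine nucleosidases. Whole seedlings aged 14 days came from mtn1-1mtn2-1, mtn1-1mtn2-5 and WT plants, with 3 libraries per genotype and medium. Unopened flower buds came from mtn1-1mtn2-1 plants, from plants labelled G3 and from WT plants, with 4 libraries per genotype and medium. The labels give the genotype of G3 as mtn1-1mtn2-1 and do not say what G3 stands for. Each genotype was grown on MS medium with 100 µM spermidine or on MS medium alone (mock). Seedlings grew in continuous light at 22 °C with 1% sucrose, and plants for buds were moved to soil after the seedling stage, so the labels state spermidine exposure in the medium and not at flowering. Each library came from about 50 mg of pooled ground tissue, and nothing states that libraries of a group came from separate cultures or plants, so p-values measure only the spread between libraries, which may be technical.

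Flavonoids are plant phenolics made from phenylalanine. CHS joins coumaroyl-CoA and malonyl-CoA into a chalcone, CHI closes its ring, F3H and F3'H add hydroxyl groups, and FLS1 turns the resulting dihydroflavonols into flavonols, which absorb ultraviolet light. DFR and LDOX take the same dihydroflavonols to anthocyanidins, the coloured precursors of anthocyanins. MYB12 is an activator of the early genes and FLS1, whereas PAP1 and PAP2 are MYB activators that act with bHLH and WD40 partners on DFR, LDOX and other late genes. MTN enzymes hydrolyse methylthioadenosine, a by-product of the synthesis of spermidine from putrescine.

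In the RefSeq annotation of TAIR10.1, all 10 are protein-coding genes. CHS lies at chr5:4488476-4490264 and CHI at chr3:20430059-20431597, F3H at chr3:19025192-19026872, F3'H at chr5:2560328-2563137 and FLS1 at chr5:2803833-2805606. DFR lies at chr5:17164093-17166032 and LDOX at chr4:12004726-12006209. The regulators are PAP1 at chr1:21233555-21235292, PAP2 at chr1:24763941-24765541 and MYB12 at chr2:19476326-19479597. CHI, DFR, LDOX and PAP1 are on the minus strand and the others on the plus strand. The 300 bases before the annotated start were read for all 10 genes. The G-box CACGTG, a palindrome bound by bZIP and bHLH factors, was present in 5 of the 10, against 7.09% of 27443 promoters of the same length. The 5 are CHS, F3H, DFR, PAP2 and MYB12. The E-box CANNTG, which also covers every G-box, was present in 7 of 10, against 61.9% of promoters, and the core ACGT was in 6 of 10, against 49% of promoters. Every motif was searched on both strands. The MYB motif ACCTACC was in 0 of 10 windows, against 1.33% of promoters. A variant, ACCAACC, was also in 0 of 10, against 3.18% of promoters, and so was the variant written ACCTAAC, which 2.93% of promoters hold. CHS and F3H are printed because both transcripts were lower in mtn1-1mtn2-1 in either tissue, DFR because it has the same motif and was not called with them, and MYB12 because it is their activator. Capitals mark the G-box, and each sequence runs 5′ to 3′ on the strand of its gene. A match describes these letters and is not evidence of a bound site.

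CHS (chr5:4488176-4488475, plus strand): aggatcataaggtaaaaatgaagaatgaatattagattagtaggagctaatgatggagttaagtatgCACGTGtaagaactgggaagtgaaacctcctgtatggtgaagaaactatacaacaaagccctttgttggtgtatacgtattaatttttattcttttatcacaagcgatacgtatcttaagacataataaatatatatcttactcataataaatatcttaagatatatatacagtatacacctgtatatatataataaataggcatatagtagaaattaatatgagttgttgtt
F3H (chr3:19024892-19025191, plus strand): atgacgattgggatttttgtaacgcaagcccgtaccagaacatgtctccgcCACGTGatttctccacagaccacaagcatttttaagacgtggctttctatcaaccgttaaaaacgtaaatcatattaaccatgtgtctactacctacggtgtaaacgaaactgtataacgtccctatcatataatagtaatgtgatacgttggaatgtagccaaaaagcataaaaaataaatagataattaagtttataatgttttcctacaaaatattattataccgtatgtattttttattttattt
DFR (chr5:17166033-17166332, minus strand): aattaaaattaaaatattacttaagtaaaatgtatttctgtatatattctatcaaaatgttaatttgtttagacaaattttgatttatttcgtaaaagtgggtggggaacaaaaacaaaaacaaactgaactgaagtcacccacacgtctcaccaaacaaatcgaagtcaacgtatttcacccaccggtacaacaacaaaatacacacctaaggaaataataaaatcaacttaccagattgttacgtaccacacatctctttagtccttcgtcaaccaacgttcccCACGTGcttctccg
MYB12 (chr2:19476026-19476325, plus strand): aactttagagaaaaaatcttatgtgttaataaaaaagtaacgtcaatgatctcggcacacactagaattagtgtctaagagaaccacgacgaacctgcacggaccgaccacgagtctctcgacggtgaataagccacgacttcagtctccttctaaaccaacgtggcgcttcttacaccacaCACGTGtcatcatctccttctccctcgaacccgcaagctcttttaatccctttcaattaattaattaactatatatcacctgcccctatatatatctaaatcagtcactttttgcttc

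The G-box began 233 bases before the start of CHS (position -233), and at -249 in F3H, -14 in DFR and -118 in MYB12. CHS overlaps AT5G13940 on the other strand, a gene with at most 0.0828 TPM in seedlings and 2.47 TPM in buds. F3H overlaps the non-coding gene AT3G51238 on the other strand, which had 6.77 to 13.96 TPM in seedlings and 3.07 to 21.5 TPM in buds. The strand setting of the counting is not given in the sources used here, so reads of these pairs cannot be told apart.

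Levels are TPM (transcript abundance scaled for gene length and depth), and the seedling and bud tables were normalized separately, so levels of the 2 tissues stand side by side without a test. Seedling libraries held 41.01 to 49.2 M fragments each, and bud libraries 19.4 to 23.9 M. MTN1 had 5.02 to 7.39 TPM in mtn1-1mtn2-1 seedlings and 128 to 145 TPM in WT seedlings. In mtn1-1mtn2-5 seedlings it had 5.48 to 6.32 TPM in 5 libraries and 26.2 TPM in mock replicate 2, which stood apart. MTN2 was at most 0.122 TPM in mtn1-1mtn2-1 seedlings and 8.45 to 9.64 TPM in mtn1-1mtn2-5 seedlings, against 7.88 to 9.65 TPM in WT. In buds, MTN1 had 3.61 to 9.09 TPM in the libraries named mtn1-1mtn2-1 or G3 and 113 to 127 TPM in those named WT. The names of the bud count table conflict with this. Of its 24 columns, 16 were closest in profile to the TPM column of the exchanged WT or G3 name. Bud results below therefore rest on the TPM table and its names, except where bud counts are named. A gene is called when its Benjamini-Hochberg adjusted p over all genes tested is under 0.05. The defining markers of the tissues were present, with 19936 to 28049 TPM summed over 4 leaf genes in seedlings and 871 to 1280 TPM over 5 floral organ genes in buds.

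In seedlings on mock medium, the 5 enzymes that lead to flavonols (CHS, CHI, F3H, F3'H and FLS1) were lower in mtn1-1mtn2-1 than in WT, whereas neither DFR nor LDOX was called. CHS had 154, 169.9 and 202 TPM in mtn1-1mtn2-1 and 345, 400.4 and 311 TPM in WT. Every mutant library lay below every WT library. The log2 fold change was -1.05 (SE 0.13, edgeR adjusted p 0.000147), a level 2.07-fold lower. F3H had 30.9, 31.8 and 33.4 TPM in mtn1-1mtn2-1 against 60.5, 76.6 and 49.7 TPM in WT, again without overlap (log2 fold change -1.001, SE 0.16, edgeR adjusted p 0.00107). CHI had 35.1, 32.02 and 37.9 TPM in mtn1-1mtn2-1 against 52.8, 59.6 and 47.4 TPM in WT. Its groups did not overlap either (log2 fold change -0.63, SE 0.13, edgeR adjusted p 0.00522). The calls of CHS, F3H and CHI held when any 1 library was left out and under all 7 other settings.

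F3'H, which adds the hydroxyl group that separates quercetin from kaempferol, had 8.98, 8.82 and 11.4 TPM in mtn1-1mtn2-1 against 12.3, 17.5 and 12.8 TPM in WT. All mutant libraries were below the WT libraries (log2 fold change -0.59, SE 0.15, edgeR adjusted p 0.0146). The call was lost without mtn1-1mtn2-1 mock replicate 1 or 2, or without WT mock replicate 2. FLS1 had 49.3, 48.2 and 44.98 TPM in mtn1-1mtn2-1 against 113, 117 and 91.5 TPM in WT. The groups lay far apart in TPM, yet the test on counts gave a wide error (log2 fold change -1.14, SE 0.37, edgeR adjusted p 0.0473), and the call was lost when any 1 of 5 of the 6 libraries was left out, all but WT mock replicate 2, or with no filter on low counts. The deposited counts of FLS1 moved against its TPM, from 81.2 to 157 depth-scaled count units per TPM across the 18 seedling libraries. CHS stayed between 167 and 175 units per TPM, and 2.01% of 14269 expressed genes were as uneven as FLS1. The limma test on log2(TPM + 1) gave FLS1 a log2 fold change of -1.15 (SE 0.18).

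DFR had 16.9, 23.9 and 23.4 TPM in mtn1-1mtn2-1 against 22.5, 29.8 and 20.996 TPM in WT, and LDOX had 13.7, 19.7 and 18.3 TPM in mtn1-1mtn2-1 against 21.05, 25.04 and 15.3 TPM in WT. Both pairs of groups overlapped. The log2 fold change of DFR was -0.25 (95% interval -0.74 to 0.24) and that of LDOX -0.47 (-1.10 to 0.17), so neither fold is well bounded. MYB12 had 4.48, 3.49 and 3.997 TPM in mtn1-1mtn2-1 against 4.53, 4.91 and 4.09 TPM in WT, which overlapped (log2 fold change -0.27, edgeR adjusted p 0.329). PAP1 went the other way. It had 1.34, 2.31 and 3.10 TPM in mtn1-1mtn2-1 against 1.21, 0.86 and 0.923 TPM in WT, with no overlap but a wide mutant spread (log2 fold change 1.07, SE 0.29, edgeR adjusted p 0.0232). This call was lost in the fit of only the groups compared and without mtn1-1mtn2-1 mock replicate 2 or 3, or WT mock replicate 2 or 3.

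**Figure D1:**
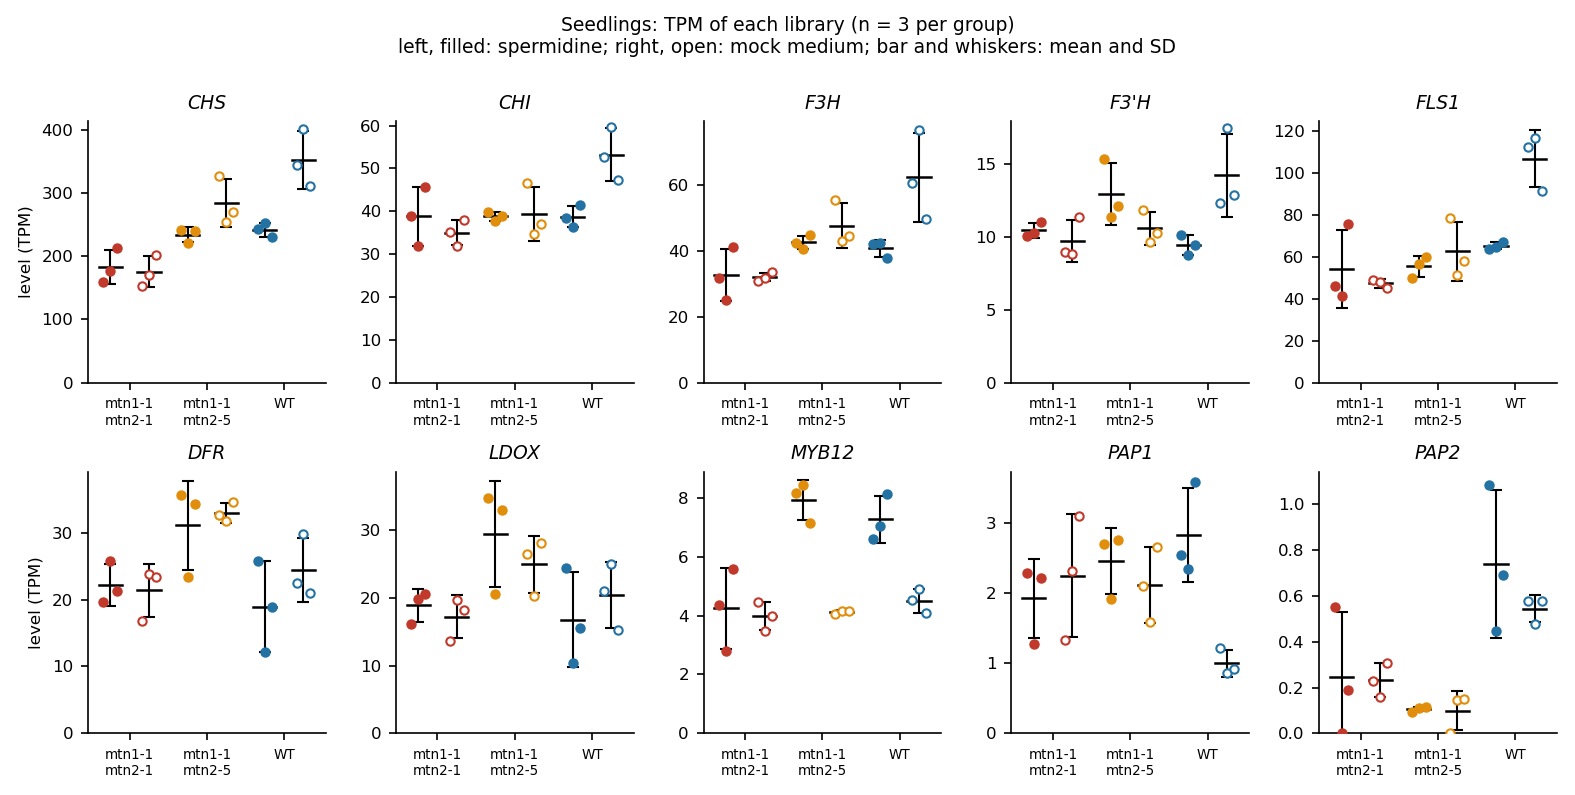
Level of each gene in seedlings, in TPM, by genotype on the x axis. Each point is a library (n = 3 per group), filled for spermidine and open for mock, and the bar and whiskers are the mean and SD. On mock, CHS had 154 to 202 TPM in mtn1-1mtn2-1 and 311 to 400.4 TPM in WT, while DFR was highest in mtn1-1mtn2-5, with 31.7 to 34.6 TPM on mock.

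PAP2 was near the limit of detection, at 0.23, 0.159 and 0.309 TPM in mtn1-1mtn2-1 against 0.576, 0.478 and 0.579 TPM in WT. It was not called (edgeR adjusted p 0.347), and its neighbours MYB113 and MYB114 are close copies that stood at 0.101 and 0.0671 TPM or less in mtn1-1mtn2-1 on mock and 0.0546 and 0.176 TPM or less in WT on mock, so reads among the 3 may be misplaced. Together, 6 of 10 genes were called in this comparison, where 15.7% of all 25201 genes tested were called. Of the 6, 5 were lower, as were 8.12% of all genes, and 1 was higher, as were 7.61%. The median log2 fold change of the 10 was -0.61, against 0.01 over all genes. The count fell to between 3 and 5 with 1 library left out. Summed TPM of the 4 leaf genes was 20791 to 24121 in mtn1-1mtn2-1 and 24656 to 24827 in WT, with 0 of 4 called, and the 3 root genes summed to 2535 to 2921 TPM and 2382 to 3229 TPM, with 2 of 3 lower. Their part in the result was not tested, and in whole seedlings fewer cells of a type and less RNA per cell cannot be told apart.

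The mtn1-1mtn2-5 seedlings, which kept MTN2 transcript, stood between the other genotypes in mean TPM for CHS and F3H on mock medium and above both for DFR. Against WT, neither F3H (log2 fold change -0.385, edgeR adjusted p 0.169) nor DFR (0.441, edgeR adjusted p 0.297) was called. CHS had 327, 254 and 270.1 TPM in mtn1-1mtn2-5 against 345, 400.4 and 311 TPM in WT, with overlap and no call (log2 fold change -0.33, 95% interval -0.59 to -0.07, edgeR adjusted p 0.131). CHI had 46.6, 34.7 and 37.1 TPM in mtn1-1mtn2-5 and lay below all WT libraries (log2 fold change -0.45, SE 0.13, edgeR adjusted p 0.0425). PAP1 had 2.11, 1.59 and 2.66 TPM in mtn1-1mtn2-5, above all WT libraries (log2 fold change 1.16, SE 0.29, edgeR adjusted p 0.0225). These 2 of 10 genes were called where 7.69% of all genes were, with 4.33% lower and 3.37% higher. The CHI call was lost without WT mock replicate 1 or 2, or mtn1-1mtn2-5 mock replicate 2 or 3. The PAP1 call was lost without WT mock replicate 2 or 3, or mtn1-1mtn2-5 mock replicate 1 or 3, and the count ranged from 0 to 3. Without mtn1-1mtn2-5 mock replicate 2, the library with raised MTN1, 1 gene was called, as CHI was lost. FLS1 had 78.4, 51.5 and 58.2 TPM in mtn1-1mtn2-5, below all WT libraries, and was not called on counts (log2 fold change -0.88, 95% interval -1.66 to -0.10). The limma test on TPM called FLS1 (log2 fold change -0.78, SE 0.18). F3'H had 9.66 to 11.8 TPM in mtn1-1mtn2-5, also below all WT libraries (log2 fold change -0.438, edgeR adjusted p 0.0876). PAP2, near the limit of detection, had 0 to 0.149 TPM against 0.478 to 0.579 TPM in WT, without overlap (log2 fold change -2.61, edgeR adjusted p 0.136). Neither F3'H nor PAP2 was called by edgeR, whereas the DESeq2 Wald test called both.

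Set directly against mtn1-1mtn2-1 on mock medium, mtn1-1mtn2-5 seedlings had higher CHS, F3H and DFR. The log2 fold change was 0.72 for CHS (SE 0.13, edgeR adjusted p 0.000669) and 0.62 for F3H (SE 0.16, edgeR adjusted p 0.00932), and neither call was lost with any 1 library left out. DFR had 32.6, 31.7 and 34.6 TPM in mtn1-1mtn2-5 against 16.9, 23.9 and 23.4 TPM in mtn1-1mtn2-1. These groups did not overlap (log2 fold change 0.69, SE 0.23, edgeR adjusted p 0.0359), but the call held in only 1 of the 6 fits with a library left out, the one without mtn1-1mtn2-1 mock replicate 2. LDOX had 26.5, 20.2 and 28.2 TPM in mtn1-1mtn2-5 against 13.7, 19.7 and 18.3 TPM in mtn1-1mtn2-1, and missed the threshold (log2 fold change 0.61, 95% interval -0.03 to 1.24). The 3 calls of 10 were all higher and stand beside 27.7% of all genes called in this comparison, and 13.1% called higher. The comparisons of both mutants with WT on mock, and of spermidine with mock in WT, share the WT mock libraries.

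WT seedlings on spermidine had lower CHS, CHI, F3H and F3'H and higher PAP1 and MYB12 than on mock. CHS had 242, 252 and 230.4 TPM on spermidine against 345, 400.4 and 311 TPM on mock, without overlap (log2 fold change -0.60, SE 0.12, edgeR adjusted p 0.00569). This call held without any 1 library. F3H had 42.1, 42.4 and 37.7 TPM on spermidine against 60.5, 76.6 and 49.7 TPM on mock (log2 fold change -0.67, edgeR adjusted p 0.0126). CHI had 38.4, 36.4 and 41.4 TPM on spermidine against 52.8, 59.6 and 47.4 TPM on mock (log2 fold change -0.52, edgeR adjusted p 0.0182). F3'H had 10.12, 8.75 and 9.44 TPM on spermidine against 12.3, 17.5 and 12.8 TPM on mock (log2 fold change -0.63, edgeR adjusted p 0.0118). None of these 3 overlapped between media. All 3 calls were lost without WT mock replicate 2, the library with the highest levels. CHI was also lost without WT spermidine replicate 1 or 2, F3H without spermidine replicate 3, and F3'H without spermidine replicate 2. FLS1 had 63.8, 64.9 and 67.2 TPM on spermidine against 113, 117 and 91.5 TPM on mock, and the groups were well apart. It was called on TPM with limma (log2 fold change -0.69, SE 0.18) and not on counts (log2 fold change -0.50, 95% interval -1.28 to 0.27).

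PAP1 had 2.55, 2.35 and 3.59 TPM on spermidine against 1.21, 0.86 and 0.923 TPM on mock in WT. All spermidine libraries were above all mock libraries (log2 fold change 1.45, SE 0.29, edgeR adjusted p 0.00462), a 2.74-fold higher level that was called without any 1 library. MYB12 had 6.6, 7.06 and 8.15 TPM on spermidine against 4.53, 4.91 and 4.09 TPM on mock, without overlap (log2 fold change 0.61, SE 0.18, edgeR adjusted p 0.0403). This call was lost in all 6 fits with a library left out. DFR had 25.7, 12.2 and 18.96 TPM on spermidine against 22.5, 29.8 and 20.996 TPM on mock, and LDOX 24.4, 10.5 and 15.6 TPM on spermidine against 21.05, 25.04 and 15.3 TPM on mock. Both overlapped, neither was called, and spermidine replicate 1 was the highest and replicate 2 the lowest in both genes. PAP2 had 1.09, 0.445 and 0.693 TPM on spermidine against 0.576, 0.478 and 0.579 TPM on mock. In all, 6 of 10 genes were called, 4 lower and 2 higher, where 9.26% of all genes were called, 6.13% lower and 3.13% higher, and the count was 2 to 5 with 1 library left out, lowest without WT mock replicate 2.

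**Figure D2:**
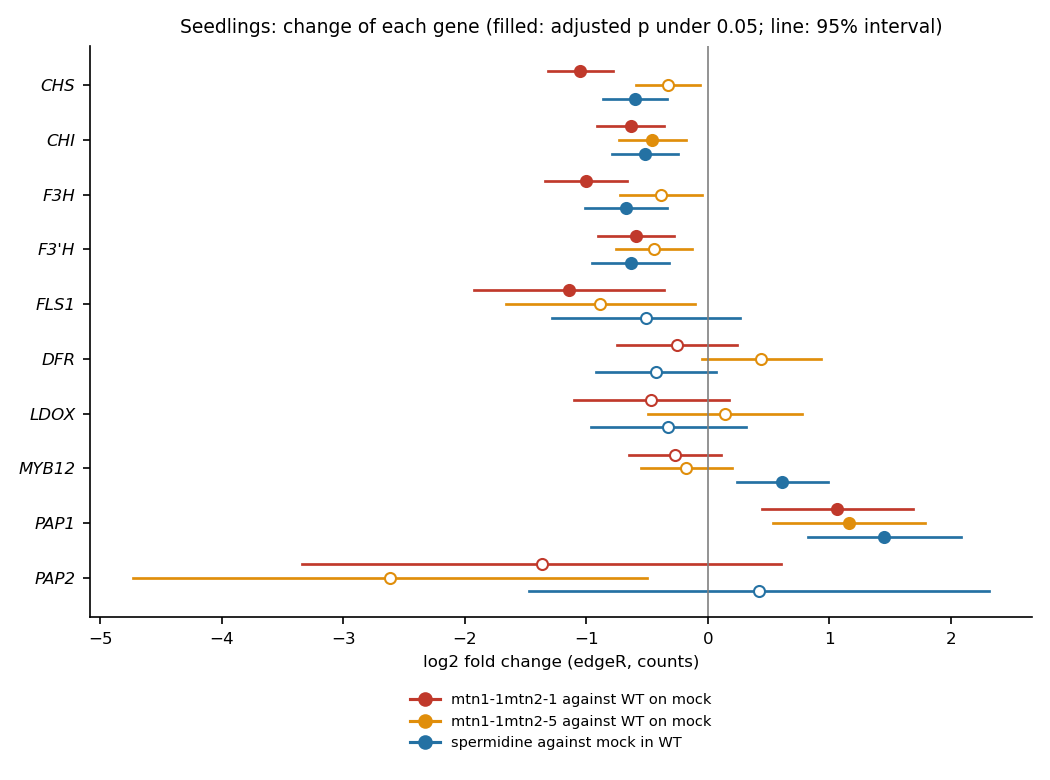
Log2 fold change of each gene in seedlings from edgeR on counts, for the mutants against WT on mock and for spermidine against mock in WT. Lines are 95% intervals and filled points passed the adjusted p threshold of 0.05. The early enzymes lie left of 0 in both mutants and on spermidine, though of these only CHI was called in mtn1-1mtn2-5. PAP1 lies right of 0 at 1.07, 1.16 and 1.45. PAP2 lies at -1.37 in mtn1-1mtn2-1 and -2.61 in mtn1-1mtn2-5, has the widest intervals and was called in neither mutant.

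No early enzyme was called between media in either mutant. In mtn1-1mtn2-1, CHS had 159.7, 177 and 213 TPM on spermidine against 154, 169.9 and 202 TPM on mock, an almost complete overlap (log2 fold change 0.08, 95% interval -0.18 to 0.34). There, 0 of 10 genes were called by edgeR, as were 0% of all genes, with 1741 of all genes and 0 of the 10 at an unadjusted p under 0.05, and DESeq2 also called 0 of the 10. PAP1 had 2.29, 1.27 and 2.21 TPM on spermidine against 1.34, 2.31 and 3.10 TPM on mock in these seedlings, with overlap. In mtn1-1mtn2-5, 1 of 10 genes was called where 4.95% of all genes were. This was MYB12, with 8.16, 8.45 and 7.16 TPM on spermidine against 4.05, 4.17 and 4.14 TPM on mock. The groups were far apart (log2 fold change 0.93, SE 0.18, edgeR adjusted p 0.0082), and the call held under every fit run, including the one without mtn1-1mtn2-5 mock replicate 2. CHS in mtn1-1mtn2-5 had 242, 221 and 240.1 TPM on spermidine against 327, 254 and 270.1 TPM on mock, without overlap and without a call (log2 fold change -0.30, 95% interval -0.57 to -0.04).

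The difference between the spermidine effects was tested as an interaction. For mtn1-1mtn2-1 minus WT it was 0.68 on the log2 scale for CHS (SE 0.18, edgeR adjusted p 0.0359), 0.66 for CHI (SE 0.18, edgeR adjusted p 0.0499) and -1.65 for PAP1 (SE 0.41, edgeR adjusted p 0.0293). These are 3 of 10 genes where 5.11% of all genes were called, 3.57% higher and 1.54% lower. The count was 0 in the fit of only the groups compared and 0 to 2 with 1 library left out, with 0 without WT mock replicate 2, WT spermidine replicate 1 or WT spermidine replicate 3. For mtn1-1mtn2-5 minus WT, 0 of 10 genes were called by edgeR where 1.22% of all genes were, or 307 genes. The nearest was F3'H at 0.89 (edgeR adjusted p 0.0513). An unadjusted p under 0.05 was found for 3 of the 10 and for 2722 of all 25201 genes. DESeq2 called 1 of the 10.

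On spermidine medium, 1 gene was called in each mutant against WT. CHS had 159.7, 177 and 213 TPM in mtn1-1mtn2-1 against 242, 252 and 230.4 TPM in WT, without overlap and just over the threshold (log2 fold change -0.37, 95% interval -0.63 to -0.11, edgeR adjusted p 0.0505). MYB12 had 4.36, 2.80 and 5.57 TPM in mtn1-1mtn2-1 against 6.6, 7.06 and 8.15 TPM in WT and was the 1 gene of 10 called, where 18.2% of all genes were (log2 fold change -0.76, SE 0.18, edgeR adjusted p 0.0078). Its call was lost in the fit of only the groups compared. Against mtn1-1mtn2-1, MYB12 was also higher in mtn1-1mtn2-5 on spermidine (log2 fold change 0.90, SE 0.18, edgeR adjusted p 0.00171), the 1 gene of 10 called there, where 26% of all genes were. For mtn1-1mtn2-5 against WT on spermidine, DFR was the 1 gene called of 10, where 13% of all genes were. It had 35.6, 23.4 and 34.3 TPM in mtn1-1mtn2-5 against 25.7, 12.2 and 18.96 TPM in WT, which overlapped (log2 fold change 0.74, SE 0.23, edgeR adjusted p 0.0462). The call was lost without WT spermidine replicate 2 or 3, or mtn1-1mtn2-5 spermidine replicate 1 or 3. LDOX had 34.8, 20.5 and 33.1 TPM in mtn1-1mtn2-5 against 24.4, 10.5 and 15.6 TPM in WT (log2 fold change 0.84, 95% interval 0.20 to 1.48, edgeR adjusted p 0.0829). PAP2 had 0.0943 to 0.114 TPM in mtn1-1mtn2-5 against 0.445 to 1.09 TPM in WT, without overlap but near the limit of detection. It was not called (log2 fold change -2.85, edgeR adjusted p 0.0731), but was called under 3 of 6 other settings.

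The balance between the branches was read from summed TPM. DFR and LDOX together made 10.99 to 15% of the sum of CHS, CHI, F3H, F3'H and FLS1 in mtn1-1mtn2-1 on mock and 11.4 to 14.9% in mtn1-1mtn2-5 on mock, against 7.08 to 8.18% in WT on mock. Neither mutant overlapped WT. The sums behind the share were not tested. In mtn1-1mtn2-1 the early sum was 299.5 ± 27.1 TPM, against 589 ± 79.4 TPM in WT, and the late sums overlapped (38.6 ± 7.04 TPM against 44.9 ± 9.37 TPM, SD, n = 3 each). In mtn1-1mtn2-5 the late sum was 58 ± 5.52 TPM and the early sum 444 ± 66.4 TPM (SD, n = 3), and both overlapped WT. The late sum was 51.95 to 62.8 TPM against 36.3 to 54.9 TPM in WT. The early sum was 393 to 519 TPM against 512 to 671 TPM in WT. On spermidine the shares were 10.9 to 16% in mtn1-1mtn2-1, 12 to 18.1% in mtn1-1mtn2-5 and 5.59 to 12.6% in WT, and WT overlapped both mutants. In buds the late enzymes were nearly silent, at 0.0279 to 0.142% of the early sum over all 24 libraries.

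**Figure D3:**
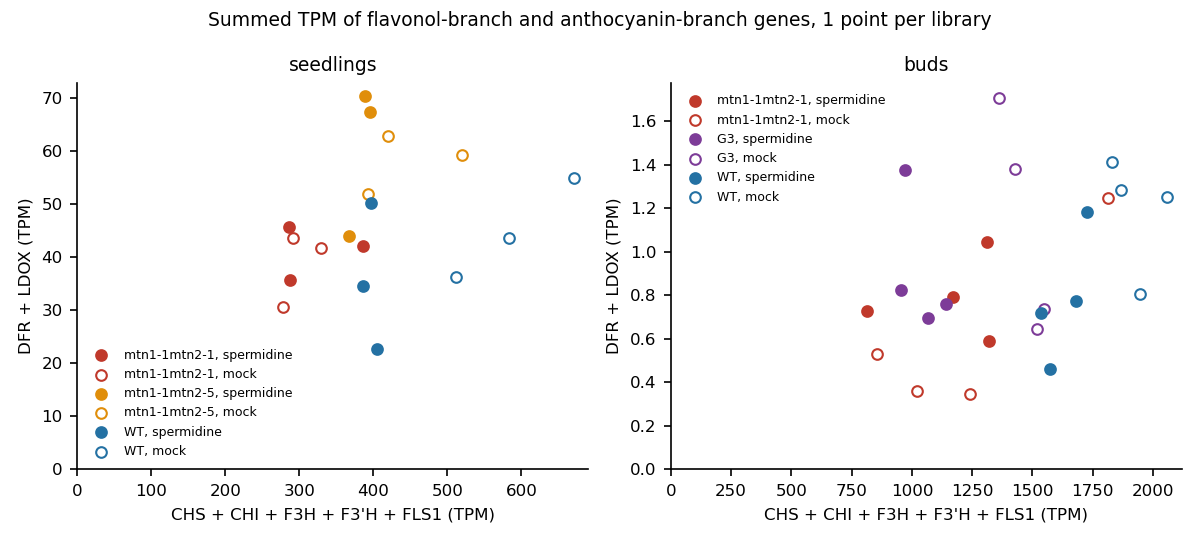
Summed TPM of DFR and LDOX (y axis) against summed TPM of CHS, CHI, F3H, F3'H and FLS1 (x axis) for seedlings (left) and buds (right), 1 point per library, filled for spermidine and open for mock. The y scale differs between panels, since the late sum was 22.6 to 70.4 TPM in seedlings and 0.346 to 1.71 TPM in buds.

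Across seedling libraries CHS was most like F3H and DFR most like LDOX, but not every member followed its branch. In buds DFR was too low to be compared. Over the 18 seedling libraries, the gene whose log2(TPM + 1) followed CHS most closely among 21247 was F3H (Pearson r 0.945, Spearman rho 0.944), followed by TRA2 (r 0.94), PGI1 (r 0.922), AT1G06550 (r 0.921) and RFNR2 (r 0.918). FLS1 had r 0.848 with CHS and CHI r 0.781, while DFR had r 0.338 and MYB12 r 0.125. F3'H had r 0.640 with CHS and r 0.521 with DFR. PAP1 had r -0.330 with CHS and r 0.0429 with DFR. The gene most like DFR was LDOX (r 0.933), followed by BGLU1 (r 0.869), AT1G21090 (r 0.856), AT1G63300 (r 0.83) and HSD4 (r 0.8294). Over the 24 bud libraries the genes most like CHS were F3H (r 0.974), FLS1 (r 0.964), CHIL (r 0.962), RHM1 (r 0.959) and AT2G12462 (r 0.955), and MYB12 had r 0.775. These are descriptions over libraries that share groups and depth, with no test.

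The wider pathway was read from lists of 57 genes of the phenylpropanoid entry, other core enzymes, decoration, transport, activators and repressors. On mock medium, 14 of the 54 tested were called in mtn1-1mtn2-1 against WT, 13 lower and 1 higher, where 15.7% of all genes were called, 8.12% lower and 7.61% higher. Their median log2 fold change was -0.20, against 0.01 over all genes. By list, 4 of 8 phenylpropanoid genes were lower, 2 of 5 other core genes, 3 of 14 decoration genes, 2 of 14 activators and 2 of 11 repressors. CHIL, a non-catalytic relative of CHI that promotes flavonoid yield, had 51.3 ± 7.16 TPM in mtn1-1mtn2-1 against 92.4 ± 11.4 TPM in WT (SD, n = 3 each, log2 fold change -0.90, edgeR adjusted p 0.00159). RHM1, which makes the UDP-rhamnose used on flavonols, fell by 0.80 on the log2 scale, PAL1, the entry enzyme, by 0.60, the bZIP gene HYH by 0.59 and the glucosyltransferase gene UGT78D2 by 0.57. The 1 that rose was MYBL2, a repressor of anthocyanin synthesis, with 89.9 ± 7.91 TPM in mtn1-1mtn2-1 against 58.5 ± 9.29 TPM in WT (SD, n = 3 each, log2 fold change 0.58, edgeR adjusted p 0.0442). In mtn1-1mtn2-5 against WT on mock, 1 of 54 was called, where 7.69% of all genes were. It was UGT78D2, with a log2 fold change of -0.47. In mtn1-1mtn2-5 against mtn1-1mtn2-1, 12 of 54 were called on mock, 6 in each direction, where 27.7% of all genes were called, and 11 on spermidine, all higher, where 26% of all genes were called. ANR and MYB11 were among those called on mock, but ANR was listed at 0 TPM in mtn1-1mtn2-5 and averaged 0.0905 TPM in mtn1-1mtn2-1, and MYB11 averaged 0.0393 TPM and 0.224 TPM, too low for a fold.

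Between media in WT seedlings, 6 of the 54 genes were called, 5 lower and 1 higher, where 9.26% of all genes were called, 6.13% lower and 3.13% higher. KFB-CHS, an F-box gene whose protein marks CHS for degradation, had 55.1 ± 4.03 TPM on spermidine against 166 ± 26 TPM on mock (SD, n = 3 each, log2 fold change -1.66, edgeR adjusted p 5.46e-06). LBD37 and LBD38, nitrogen-responsive repressors of anthocyanin genes, fell by 0.74 and 0.62 on the log2 scale, CHIL by 0.55 and PAL2 by 0.29, and the acyltransferase gene 3AT1 was higher by 0.45. In the mutants, KFB-CHS had 142 ± 28.8 TPM on spermidine against 165 ± 6.11 TPM on mock in mtn1-1mtn2-1, and 219.7 ± 14.9 TPM on spermidine against 195.5 ± 24.4 TPM on mock in mtn1-1mtn2-5 (SD, n = 3 each). The interaction with WT was 1.45 for mtn1-1mtn2-1 (SE 0.19, edgeR adjusted p 0.000494) and 1.80 for mtn1-1mtn2-5 (SE 0.19, edgeR adjusted p 0.000144). LBD37 and LBD38 were the other genes of the lists called in both interactions, between 0.58 and 0.80 on the log2 scale. Against WT on spermidine, 15 of 54 were called in mtn1-1mtn2-1, where 18.2% of all genes were, with KFB-CHS higher by 1.40 and UGT84A2, HYH and UGT78D1 lower by log2 fold changes of -0.89, -0.87 and -0.78. In mtn1-1mtn2-5 there were 6, where 13% of all genes were called, with KFB-CHS higher by 2.01, MYBL2 by 1.04 and the anthocyanin glucosyltransferase gene UGT75C1 by 0.71.

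In flower buds, the flavonol branch was high and the anthocyanin branch nearly absent in every genotype. DFR was listed between 0 and 0.565 TPM, LDOX between 0.308 and 1.32 TPM, PAP1 between 0.147 and 1.32 TPM and PAP2 between 0 and 0.538 TPM over the 24 libraries. DFR, PAP1 and PAP2 did not reach 1 TPM in 4 libraries and were not tested on TPM, so 7 of the 10 genes were tested among 22340, and LDOX passed near that limit. Tested instead on the bud counts with exchanged names, 1 of the 4 was called in 1 comparison, PAP1 for G3 against mtn1-1mtn2-1 on spermidine. It had 0.63, 0.147, 0.259 and 0.351 TPM in G3 against 1.23, 1.29, 0.774 and 0.552 TPM in mtn1-1mtn2-1, which overlapped (log2 fold change -1.45, SE 0.45, edgeR adjusted p 0.0285). DFR, LDOX and PAP2 were called in no comparison of the fit on counts with exchanged names. For G3 against mtn1-1mtn2-1 on spermidine, calls over all genes ranged from 3399 to 6932 over the alternative fits.

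On mock medium, all 5 early and flavonol enzymes and MYB12 were lower in mtn1-1mtn2-1 buds than in WT buds, 6 of the 7 tested, where 39.1% of all genes were called and 25.7% were called lower. CHS had 953, 657, 465 and 597 TPM in mtn1-1mtn2-1 against 1136, 1044, 1029.5 and 976 TPM in WT. The groups just failed to overlap, because mtn1-1mtn2-1 replicate 1 stood well above the other 3 (log2 fold change -0.69, SE 0.15, limma adjusted p 0.00116). FLS1 had 435, 292, 177 and 195 TPM in mtn1-1mtn2-1 against 437, 439, 418 and 438 TPM in WT, so replicate 1 lay within the WT range (log2 fold change -0.75, SE 0.19, limma adjusted p 0.00383). F3H had 247, 156, 103 and 128 TPM in mtn1-1mtn2-1 against 299.4, 273, 253 and 213 TPM in WT, with overlap from the same library (log2 fold change -0.77, SE 0.19, limma adjusted p 0.00265). CHI had 113, 81.3, 66.04 and 57.2 TPM in mtn1-1mtn2-1 against 111, 118, 102 and 126 TPM in WT, with the same library overlapping (log2 fold change -0.57, limma adjusted p 0.00239). F3'H had 66.6, 55.1, 44.7 and 42.9 TPM in mtn1-1mtn2-1 against 75.1, 74.3, 66.2 and 75.2 TPM in WT (log2 fold change -0.49, limma adjusted p 0.00486). MYB12 had the smallest adjusted p of the 7, at 12.01, 11.97, 8.52 and 9.59 TPM in mtn1-1mtn2-1 against 20.8, 19.8, 18.8 and 18.1 TPM in WT, with every mutant library under every WT library (log2 fold change -0.83, SE 0.11, limma adjusted p 4.11e-06). The same 6 genes were called whichever library was left out.

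**Figure D4:**
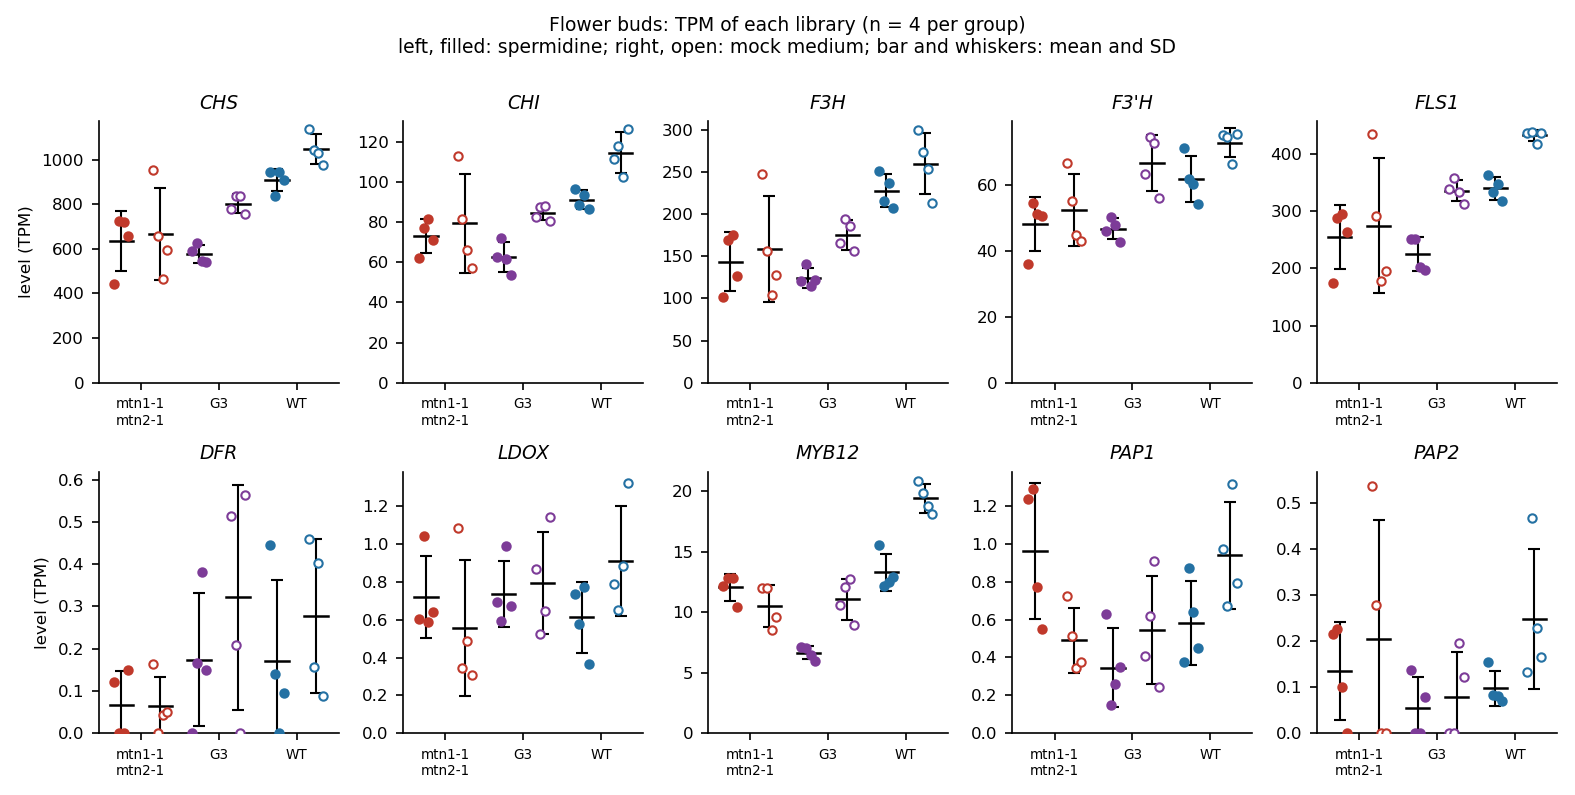
Level of each gene in flower buds, in TPM, by genotype on the x axis. Each point is a library (n = 4 per group), filled for spermidine and open for mock, and the bar and whiskers are the mean and SD. MYB12 was 8.52 to 12.01 TPM in mtn1-1mtn2-1 and 18.1 to 20.8 TPM in WT on mock, and DFR, LDOX, PAP1 and PAP2 stayed at or under 1.32 TPM.

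Marker genes of other bud cell types moved with genotype. The 9 pollen genes summed to 502 to 692 TPM in mtn1-1mtn2-1 on mock against 1290 to 1691 TPM in WT on mock, with 8 of 9 lower. The 11 tapetum genes summed to 924 to 1300 TPM in mtn1-1mtn2-1 against 768 to 1024 TPM in WT, with 4 of 11 higher. In G3 on mock, the pollen genes summed to 991 to 1256 TPM with 4 of 9 lower than in WT, the tapetum genes to 994 to 1227 TPM with 5 higher and 1 lower, and the 4 leaf genes to 7028 to 8110 TPM against 10872 to 12609 TPM in WT with 3 of 4 lower. The 5 floral organ genes summed to 984 to 1089 TPM in mtn1-1mtn2-1 and 894 to 1008 TPM in G3, against 1131 to 1280 TPM in WT, with 4 of 5 lower in either. On spermidine, the leaf genes summed to 7206 to 7939 TPM in G3 against 11560 to 12605 TPM in WT with 3 of 4 lower, the floral organ genes to 871 to 917 TPM in G3 against 1063 to 1183 TPM in WT with 4 of 5 lower, and 6 of 9 pollen genes were lower in G3. In mtn1-1mtn2-1 on spermidine, 8 of 9 pollen genes and 1 of 5 floral organ genes were lower than in WT and 3 of 11 tapetum genes were higher. No gene of these lists was at 0 in every library of a group. Their part in the flavonoid results was not tested.

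G3 buds had lower MYB12, F3H and CHI than WT buds on mock, 3 of 7 where 36% of all genes were called and 19.9% were called lower. MYB12 had 10.6, 12.1, 12.7 and 8.92 TPM in G3 against 20.8, 19.8, 18.8 and 18.1 TPM in WT, without overlap (log2 fold change -0.76, SE 0.11, limma adjusted p 1.33e-05). F3H had 165, 194, 186 and 156 TPM in G3 against 299.4, 273, 253 and 213 TPM in WT, without overlap (log2 fold change -0.56, limma adjusted p 0.0258). CHI had 82.8, 87.7, 87.8 and 80.7 TPM in G3, also below all WT libraries (log2 fold change -0.43, limma adjusted p 0.0188). F3H lost its call without G3 replicate 1 or 4 or WT replicate 1 or 2, and CHI without WT replicate 4. CHS had 779, 837, 838 and 757 TPM in G3 against 1136, 1044, 1029.5 and 976 TPM in WT. The groups did not overlap, and the test missed the threshold (log2 fold change -0.38, 95% interval -0.70 to -0.06, limma adjusted p 0.0584). On spermidine, 6 of 7 were lower in G3 than in WT, where 32.6% of all genes were called and 16.4% were called lower. CHS had 588, 627, 544 and 541 TPM in G3 against 946, 838, 944 and 908 TPM in WT (log2 fold change -0.66, SE 0.15, limma adjusted p 0.00218). F3H had 120.4, 141, 115 and 121 TPM in G3 against 251, 215, 237 and 208 TPM in WT (log2 fold change -0.87, SE 0.19, limma adjusted p 0.00128). Neither gene overlapped between genotypes. MYB12 had 7.13, 7.06, 6.49 and 5.98 TPM in G3 against 15.5, 12.2, 12.5 and 12.9 TPM in WT, the largest change of the 7 (log2 fold change -0.89, SE 0.11, limma adjusted p 1.96e-06). CHI, FLS1 and F3'H were lower by log2 fold changes of -0.54, -0.60 and -0.39. The FLS1 call was lost without G3 spermidine replicate 3 or 4 or WT spermidine replicate 1, and the F3'H call without G3 spermidine replicate 4 or WT spermidine replicate 1.

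**Figure D5:**
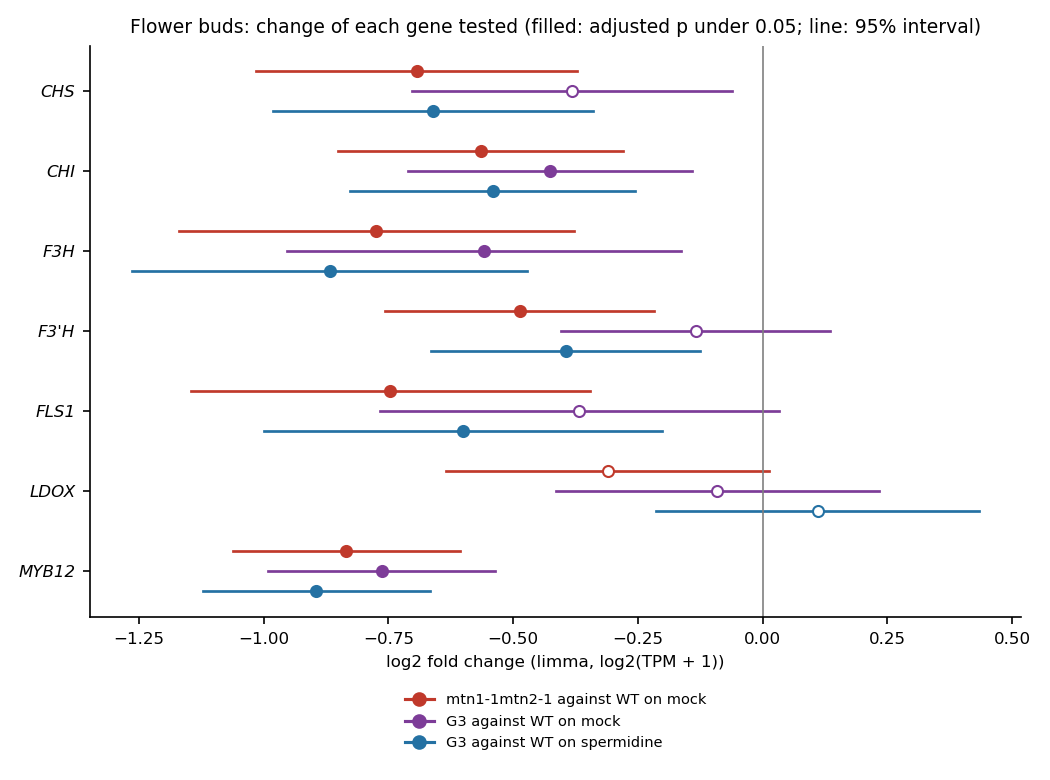
Log2 fold change of the 7 genes tested in buds, from limma on log2(TPM + 1), for mtn1-1mtn2-1 against WT on mock and G3 against WT on mock and on spermidine. Lines are 95% intervals and filled points passed the adjusted p threshold of 0.05. MYB12 lies at -0.83, -0.76 and -0.89. LDOX is near 0 with its interval across 0 in all 3, but it stayed at or under 1.32 TPM, where log2(TPM + 1) understates a fold. On the bud counts with exchanged names, edgeR gave LDOX log2 fold changes of -0.69, -0.15 and 0.27 in the same order, none called.

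On spermidine, mtn1-1mtn2-1 buds had 3 of 7 genes lower than WT, where 32.5% of all genes were called and 17.2% were called lower. CHS had 441, 723, 718 and 658 TPM in mtn1-1mtn2-1 against 946, 838, 944 and 908 TPM in WT (log2 fold change -0.54, limma adjusted p 0.00989), a call lost without mtn1-1mtn2-1 spermidine replicate 1, the lowest library. F3H had a log2 fold change of -0.69 (limma adjusted p 0.00768), and F3'H one of -0.37 (limma adjusted p 0.034) that was lost without WT spermidine replicate 1, 2 or 3 or mtn1-1mtn2-1 spermidine replicate 1. MYB12 had 12.1, 12.8, 12.8 and 10.4 TPM in mtn1-1mtn2-1 against 15.5, 12.2, 12.5 and 12.9 TPM in WT, which overlapped (log2 fold change -0.13, 95% interval -0.36 to 0.10). G3 and mtn1-1mtn2-1 buds, given the same genotype by the labels, differed on spermidine in MYB12, at 7.13, 7.06, 6.49 and 5.98 TPM in G3 against 12.1, 12.8, 12.8 and 10.4 TPM in mtn1-1mtn2-1 (log2 fold change -0.77, SE 0.11, limma adjusted p 3.10e-05). This was 1 of 7 where 22.8% of all genes were called. On mock, F3'H was 1 of 7 called, higher in G3 (log2 fold change 0.35, limma adjusted p 0.0481), where 26.4% of all genes were. The call was lost in 6 of the 8 fits with a library left out. Without mtn1-1mtn2-1 mock replicate 1 the 5 enzymes were all called higher in G3, by log2 fold changes of 0.32 to 0.63. Calls over all genes for this comparison ranged from 3699 to 8470 over the alternative fits, against 5905 in the main fit. The share in the fit without that library is not given here.

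Spermidine itself changed 1 of the 7 genes in G3 buds, where 1.39% of all genes were called. MYB12 had 7.13, 7.06, 6.49 and 5.98 TPM on spermidine against 10.6, 12.1, 12.7 and 8.92 TPM on mock in G3, without overlap (log2 fold change -0.65, SE 0.11, limma adjusted p 0.00646). CHS, CHI, F3H, F3'H and FLS1 were each without overlap between media in G3 but not called, with log2 fold changes of -0.44 to -0.58. The share of all genes without overlap between these media was not counted. Fitted on the G3 libraries alone, 6 of 7 were called, where 3.24% of all genes were. In WT buds 0 of 7 were called by limma, where 0.0806% of all genes were called. At an unadjusted p under 0.05 there were 2 of 7, and 2436 of all 22340 genes. MYB12 was nearest, at 15.5, 12.2, 12.5 and 12.9 TPM on spermidine against 20.8, 19.8, 18.8 and 18.1 TPM on mock (log2 fold change -0.52, limma adjusted p 0.0592). The groups did not overlap, and in the fit of the WT libraries alone 3 of 7 were called, where 3.92% of all genes were. In mtn1-1mtn2-1 buds 0 of 7 were called by limma or by DESeq2, where limma called 0.0985% of all genes. There, 0 of 7 had an unadjusted p under 0.05, as did 3105 of all 22340 genes. MYB12 had 12.1, 12.8, 12.8 and 10.4 TPM on spermidine against 12.01, 11.97, 8.52 and 9.59 TPM on mock (log2 fold change 0.19, 95% interval -0.04 to 0.42). The interaction of mtn1-1mtn2-1 with WT called 0 of 7, where 0.0671% of all genes were, and was 0.71 for MYB12 (SE 0.15, limma adjusted p 0.0611). DESeq2 on the counts with exchanged names called 1 of 7 there and 1 of 7 for spermidine in WT. Over the alternative fits, calls over all genes ranged from 4 to 401 for that interaction and from 2 to 830 for spermidine in WT. The interaction of G3 with WT called 0 of 7 and 0% of all genes by limma, with 1317 of all genes and 0 of the 7 at an unadjusted p under 0.05. MYB12 was thus called higher on spermidine in WT and mtn1-1mtn2-5 seedlings and lower in G3 buds, a contrast between tissues that was not tested. The WT seedling call was lost whenever 1 library was left out. WT buds also had lower MYB12 on spermidine without overlap, short of a call, so the lower level was not particular to G3.

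Of the wider lists, 48 genes were tested in buds. On mock, 28 were called in mtn1-1mtn2-1 against WT, 26 lower and 2 higher, where 39.1% of all genes were called and 25.7% were lower. In G3 against WT, 24 were called, 21 lower and 3 higher, where 36% of all genes were called and 19.9% were lower. Both comparisons share the WT mock libraries. The largest changes in mtn1-1mtn2-1 were in MYB24, MYB57 and MYB21, activators that act in stamens and on flavonol genes in flowers. MYB24 had 5.9 ± 2.06 TPM in mtn1-1mtn2-1 against 37.3 ± 9.45 TPM in WT (SD, n = 4 each, log2 fold change -2.48, limma adjusted p 9.38e-07), MYB57 a log2 fold change of -2.28 and MYB21 one of -1.98. CHIL had 159 ± 68.4 TPM in mtn1-1mtn2-1 and 166 ± 10.7 TPM in G3, against 237 ± 21.6 TPM in WT (SD, n = 4 each), and was named, like MYB111, after its values were seen. In G3 the largest was HYH, with 1.09 ± 0.235 TPM against 9.37 ± 0.533 TPM in WT (SD, n = 4 each, log2 fold change -2.32, limma adjusted p 6.97e-05), followed by MYB57 (log2 fold change -1.93), SCPL10 (-1.54), MYBL2 (-1.49), TRY (-1.22), KFB-CHS (-1.06) and HY5 (-0.92), all lower, and by the rhamnosyltransferase gene UGT89C1, which was higher (1.22). MYB111, a relative of MYB12 among flavonol activators, was higher in G3, at 33.3 ± 2.64 TPM against 22.6 ± 1.65 TPM in WT (SD, n = 4 each, log2 fold change 0.54, limma adjusted p 2.57e-05). On spermidine, 15 of 48 were called in mtn1-1mtn2-1 against WT, where 32.5% of all genes were, and 23 in G3 against WT, where 32.6% of all genes were. For spermidine against mock, 3 were called in G3, where 1.39% of all genes were. These were MYB4, MYB32 and MYB111, with log2 fold changes of -0.53, -0.41 and -0.36. In WT 1 was called, MYB32 at -0.52, where 0.0806% of all genes were, and in mtn1-1mtn2-1 0 were called by limma, where 0.0985% of all genes were.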

How the data were processed

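RNA-seq of 18 seedling and 24 flower bud libraries was re-analysed from the deposited tables. The authors deposited estimated counts per gene, which are whole numbers summing to about 3.27 units per fragment in seedlings and 3.88 in buds, and were tested as such. They also deposited TPM per gene, in one table per tissue. Per the submitters' processing notes, Trim Galore, STAR, StringTie and TAIR10 were used, with no versions or roles stated, and strand handling is not given in the sources used here. Libraries were made by either of a pair of providers, per the labels, and which one made which library is not stated, so provider and group cannot be told apart.

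Seedlings were tested with edgeR 4.0.16 (filterByExpr, TMM, quasi-likelihood, 6 groups in 1 model) in R 4.3.3 over 25201 genes. Buds were tested with limma 3.58.1 (trend) on log2(TPM + 1) over 22340 genes with at least 1 TPM in at least 4 libraries, because the WT and G3 names of the bud counts are exchanged against the TPM table and high MTN1 marks WT in the TPM table. Adjustment was by Benjamini-Hochberg over all genes tested, with a threshold of 0.05. A fold change on log2(TPM + 1) understates the change of low genes. Alternatives used DESeq2 1.42.0, other filters, scalings and fits. Scripts were tested on simulated data. Of 54 replicate pairs, 0 were identical. Sampling noise covers counting error only. Promoters are the 300 bases before each annotated start.

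The members and gene lists were chosen with earlier results of these data known. Named genes are the 10 members, up to 8 called genes per comparison with the largest change among the wider lists, and the 5 genes most like CHS and DFR.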

Additional observations from a re-analysis of the deposited data

Results flagged for a closer look

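In WT buds on mock, the lowest library had 66.22 TPM of F3'H, with the next at 74.3 TPM, a gap that took up 0.895 of the group's range. In the same group the lowest library had 418.1 TPM of FLS1, with the next at 437 TPM, a gap of 0.909 of the range. Both are replicate 3. These were 2 of 36 sets of 4 libraries examined, where chance picks out about 1 in 20.

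In seedlings, the spermidine effect differed between mtn1-1mtn2-1 and WT in 3 genes by the edgeR interaction term. The difference was -1.65 on the log2 scale for PAP1 (adjusted p 0.0293), 0.656 for CHI (adjusted p 0.0499) and 0.678 for CHS (adjusted p 0.0359). Leaving out 1 library at a time ended the PAP1 call in 6 of 12 fits, the CHI call in 11 and the CHS call in 9.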

How the results depend on the processing

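Bud directions rest on the names of the TPM table. In the bud counts, columns named G3 held 6989 to 8486 MTN1 counts and those named WT 386 to 583. Their own names thus exchange WT and G3, so the changes of sign below follow from the names and do not test the directions. With edgeR on the bud counts under their own names, log2 fold changes turned positive, for G3 against WT on mock in CHI (0.398), F3H (0.532) and MYB12 (0.793), and on spermidine in CHS (0.663), CHI (0.556), F3H (0.884), F3'H (0.404), FLS1 (0.597) and MYB12 (0.988). They did so for mtn1-1mtn2-1 against WT on spermidine in CHS (0.141), F3H (0.205), F3'H (0.0342) and MYB12 (0.852), and for G3 against mtn1-1mtn2-1 on spermidine in CHS (0.522), F3H (0.678) and MYB12 (0.136). Under those names 1 gene was called for G3 against WT on mock, 6 for G3 against mtn1-1mtn2-1 on mock, 2 on spermidine, 0 for mtn1-1mtn2-1 against WT on mock, 0 for spermidine in G3, 1 in WT, and 1 for the mtn1-1mtn2-1 interaction. With exchanged names, edgeR called 1 for G3 against WT on mock and 0 on mock and 2 on spermidine for G3 against mtn1-1mtn2-1. DESeq2 with exchanged names called 0 and 2 there, 2 for spermidine in G3, 1 in WT and 1 for the mtn1-1mtn2-1 interaction. Median-ratio scaling called 0 for G3 against mtn1-1mtn2-1 on mock, as did no filter, which called 2 on spermidine. Median-ratio scaling gave a share of higher calls of 49.7%, against 34.4% without it, over all genes for mtn1-1mtn2-1 against WT on mock, and of 51.5% against 66.8% for G3 against mtn1-1mtn2-1 on mock. Fitting only the groups compared gave 5 for G3 against WT on mock, where 42.9% of all genes were called, and 0 for G3 against mtn1-1mtn2-1 on mock, where 17.5% were. It gave 6 for spermidine in G3, where 3.24% of all genes were called, and 3 in WT, where 3.92% were.

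In seedlings, calls for mtn1-1mtn2-1 against WT on spermidine numbered 2 with the DESeq2 Wald test, DESeq2 size factors, counts per fragment, limma on TPM or no filter, and 0 with only the groups compared. For mtn1-1mtn2-5 against WT on mock they numbered 4 with the Wald test, 1 with no filter and 1 with only the groups compared. On spermidine they numbered 4 with the Wald test, 3 with limma, 2 with counts per fragment, 2 with only the groups compared and 0 with no filter. For mtn1-1mtn2-5 against mtn1-1mtn2-1 on spermidine they numbered 3 with the Wald test, 2 with limma and 2 with counts per fragment. The mtn1-1mtn2-1 interaction had 5 with the Wald test and 0 with only the groups compared, and the mtn1-1mtn2-5 interaction 1 with the Wald test, limma or counts per fragment. Fitted on only the groups compared, 7.7% of all genes were called for mtn1-1mtn2-1 against WT on spermidine and 3.45% for its interaction. For mtn1-1mtn2-5 against WT, 5.64% were called on mock and 13.1% on spermidine. Shares under the other alternative fits of either tissue are not given here, so those counts show only how calls moved. The causes were not tested. Calls over all genes ranged widely for spermidine in mtn1-1mtn2-5 seedlings (338 to 2249, main 1248), in G3 buds (4 to 696, main 310) and in WT buds (2 to 830, main 18), and for mtn1-1mtn2-1 against WT on mock (2173 to 5076 in seedlings, 5315 to 9085 in buds).

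The labels give no shared source for same-numbered libraries, and not every same-numbered pair deviated together. Their correlations ran from -0.128 to 0.102 in seedlings, with 1 of 45 pairs over 0.1 and 5 of 18 libraries closest to their own number, and from -0.237 to 0.344 in buds, with 14 of 60 pairs over 0.1 and 11 of 24 libraries closest to their own number. With the replicate block, calls numbered 0 for mtn1-1mtn2-5 against WT on spermidine in seedlings, where DFR was lost. The block also ended the seedling calls of DFR for mtn1-1mtn2-5 against mtn1-1mtn2-1 on mock, of MYB12 for spermidine in WT and of CHS in the mtn1-1mtn2-1 interaction. In buds it gave 2 calls for spermidine in G3, adding F3'H, and 1 in WT and 1 for the mtn1-1mtn2-1 interaction, both MYB12.

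Leaving out 1 library gave, in seedlings, 3 to 5 calls for mtn1-1mtn2-1 against WT on mock and 1 to 3 on spermidine, 0 to 3 for mtn1-1mtn2-5 against WT on each medium, 2 to 3 for mtn1-1mtn2-5 against mtn1-1mtn2-1 on mock and 1 to 3 on spermidine. It gave 2 to 5 for spermidine in WT, 0 in mtn1-1mtn2-1, 1 in mtn1-1mtn2-5, and 0 to 2 and 0 to 1 for the interactions. In buds it gave 6 for mtn1-1mtn2-1 against WT on mock and 1 to 3 on spermidine, 2 to 3 and 4 to 6 for G3 against WT, and 0 to 5 and 1 for G3 against mtn1-1mtn2-1. Spermidine gave 1 to 2 in G3, 0 to 1 in WT and 0 in mtn1-1mtn2-1, and the interactions 0 to 1 for mtn1-1mtn2-1 and 0 for G3. Groups of 3 or 4 libraries leave wide intervals for DFR, LDOX and PAP2 in seedlings, and the late genes in buds lie near the detection limit.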
